A study of Mus musculus with 10 samples.

Results

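Fibroblasts hold many stretches of open chromatin away from the ends of genes, and some of them lie close together in rows. The regions described here are the fibroblast-only distal regions that stand in such rows, called chains below. Overlapping ATAC-seq peaks of all 10 libraries of a reprogramming series were merged into 208851 regions. A region was kept if both fibroblast lists and neither stem cell list had a peak in it, which left 23262 regions. Of these, 22417 lay more than 1 kb from both ends of every protein-coding gene. Regions of this kind with gaps of at most 12.5 kb were joined, and 1211 regions in 272 chains of 4 or more were retained. That is 5.40% of the distal fibroblast-only regions and 0.580% of all merged regions. The members were thus chosen by their peaks in MEF and ESC, and only the 3 days between were free to vary.

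The libraries came from mouse cells of C57BL/6 x 129 background, with 2 libraries at each of 5 stages. MEF were embryonic fibroblasts of genotype OKSM Col1a1/M2rtTA ROSA26, which means that the Col1a1 locus carried the reprogramming factors as 1 cassette (OKSM, for Oct4, Klf4, Sox2 and Myc) and that Rosa26 carried M2rtTA, the transactivator that doxycycline switches on. They were kept in MEF medium without doxycycline and not sorted. DAY3, DAY6 and DAY9 cells had the same genotype and were in ESC medium with doxycycline (1 ug/ml) and ascorbic acid (50 ug/ml) for 3, 6 and 9 days. DAY3 cells were unsorted, whereas DAY6 and DAY9 cells were sorted for the surface marker SSEA1, so sorting and time cannot be told apart between DAY3 and the later days. ESC were unsorted embryonic stem cells of the line V6.5, without the cassette, grown in ESC medium on irradiated feeder cells. All libraries carry 1 batch name. No label says that the libraries of a stage came from separate mice or cultures, so p-values measure only the spread between these samples.

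Enhancers are stretches of DNA outside promoters that bind transcription factors and act on a gene that can lie far away. Rows of neighbouring enhancers, at their strongest called super-enhancers, are typical of genes that carry the identity of a cell type, such as matrix genes in fibroblasts. AP-1, Tead and Runx proteins are among the factors that bind fibroblast enhancers, and reprogramming to pluripotency involves the loss of such open sites. Peak lists alone do not show which of the regions are enhancers or which gene they act on, and genes are used below as names of places.

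RefSeq promoter windows (GRCm38.p6, which is mm10), running from 250 bases before to 50 after a gene's start, were the source of sequence for these regions. Of 32851 windows, 16 overlapped a clustered region and 9 lay completely inside one, at 8 starts of noncoding RNAs and at the start listed for Adcy7. These windows show letters from inside clustered regions, but only of those that hold an annotated start. Capitals mark the AP-1 motif TGANTCA alone. It and the other motifs given below were searched on both strands. The first 4 windows stood in regions without a peak at DAY3, DAY6 or DAY9, and each held the motif. The windows of Gm35636 and Gm15638, also inside such regions, did not hold it and are not printed.
Gm8883, chr1:71887862-71888161, plus strand, in a chain 227 kb from Fn1: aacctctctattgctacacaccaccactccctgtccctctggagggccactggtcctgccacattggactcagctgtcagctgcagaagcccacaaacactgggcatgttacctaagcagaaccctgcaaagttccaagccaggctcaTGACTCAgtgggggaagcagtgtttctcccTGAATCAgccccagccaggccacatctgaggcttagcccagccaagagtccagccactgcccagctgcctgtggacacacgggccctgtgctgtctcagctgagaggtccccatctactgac
Gm38915, chr6:137702895-137703194, plus strand, in a chain 24.3 kb from Strap: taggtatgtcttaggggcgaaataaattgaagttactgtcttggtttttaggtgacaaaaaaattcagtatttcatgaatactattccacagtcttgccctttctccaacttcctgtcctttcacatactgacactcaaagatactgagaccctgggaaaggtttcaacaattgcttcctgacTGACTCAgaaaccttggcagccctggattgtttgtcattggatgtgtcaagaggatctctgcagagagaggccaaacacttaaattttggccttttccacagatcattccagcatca
Gm51485, chr7:65802301-65802600, minus strand, in a chain 57.0 kb from Pcsk6: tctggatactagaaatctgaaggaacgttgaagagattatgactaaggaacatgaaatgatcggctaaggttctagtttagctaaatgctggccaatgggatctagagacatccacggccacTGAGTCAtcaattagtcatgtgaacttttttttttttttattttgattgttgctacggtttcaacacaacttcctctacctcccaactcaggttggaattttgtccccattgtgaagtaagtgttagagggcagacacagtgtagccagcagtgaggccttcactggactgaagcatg
Adcy7, chr8:88288816-88289065, plus strand, the 250 bases before the start, in a chain inside Adcy7: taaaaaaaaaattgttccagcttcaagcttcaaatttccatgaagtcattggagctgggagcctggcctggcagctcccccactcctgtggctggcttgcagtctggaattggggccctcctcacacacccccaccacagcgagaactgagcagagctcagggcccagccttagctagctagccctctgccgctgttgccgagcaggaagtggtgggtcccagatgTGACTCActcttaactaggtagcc
The next 3 windows stood in regions that had peaks in both DAY3 libraries.
4930471E19Rik, chr10:120636058-120636357, minus strand, in a chain 140 kb from Hmga2: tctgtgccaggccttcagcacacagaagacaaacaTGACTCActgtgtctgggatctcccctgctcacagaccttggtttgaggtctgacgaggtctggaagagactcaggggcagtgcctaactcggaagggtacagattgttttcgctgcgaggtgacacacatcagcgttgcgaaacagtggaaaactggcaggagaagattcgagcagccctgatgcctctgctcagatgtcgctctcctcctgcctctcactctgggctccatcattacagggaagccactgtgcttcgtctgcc
Gm35546, chr1:186587072-186587371, plus strand, in a chain 35.2 kb from Tgfb2: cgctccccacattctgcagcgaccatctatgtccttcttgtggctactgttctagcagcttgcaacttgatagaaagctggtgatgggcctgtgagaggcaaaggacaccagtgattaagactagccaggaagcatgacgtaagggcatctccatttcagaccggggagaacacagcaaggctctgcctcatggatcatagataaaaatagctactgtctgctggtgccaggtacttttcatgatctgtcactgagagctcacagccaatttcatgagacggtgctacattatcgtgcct
Gm51670, chr9:41579597-41579896, minus strand, in the chain that spans Mir125b-1: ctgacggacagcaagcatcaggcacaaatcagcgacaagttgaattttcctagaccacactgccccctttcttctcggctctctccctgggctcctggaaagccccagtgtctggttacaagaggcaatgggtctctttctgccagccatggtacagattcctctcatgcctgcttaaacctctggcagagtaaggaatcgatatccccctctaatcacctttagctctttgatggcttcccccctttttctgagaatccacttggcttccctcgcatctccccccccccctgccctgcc

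The AP-1 motif was in 5 of the 9 windows, against 7.81% of all 32851 windows and 9.31% of the 11588 windows of noncoding RNAs. It was in 4 of the 6 windows whose region had no DAY3 peak and in 1 of the 3 whose region had one. The Runx motif TGTGGT was in 4 of the 9 windows (16.8% of all windows), and the Tead motif GGAATG in 2 (14.7% of all windows). The Klf motif GGGCGTG, present in 8.44% of all windows, the octamer ATGCAAAT, in 1.74%, and the NFI motif, in 0.0365%, were in none of the 9. None of these motifs contains another. These are matches of letters and not sites of binding, and 9 windows are too few for a rate.

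Most chains were short. Of the 272 chains, 188 had 4 regions, 59 had 5, 17 had 6, 5 had 7, and 1 each had 8, 9 and 10. The chains just outside the rule were the 671 with 3 regions, and a further 13879 distal fibroblast-only regions stood alone. A chain spanned between 4.91 and 78.5 kb with a median of 21.4 kb, and all chains together spanned 6.02 Mb. The median gap between neighbours in a chain was 5.17 kb (quartiles 2.62 and 8.55 kb), against 45.6 kb between consecutive distal fibroblast-only regions as a whole. Without MEF replicate 1, when 1 fibroblast list chose the regions, there were 795 chains, and without MEF replicate 2 there were 1192, so the number of chains rests on requiring both lists.

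A little over 1 chain in 2 lay inside a single gene (139 of 272, 51.1%), 15 overlapped a gene in part, and 118 lay between genes at a median of 39.6 kb from the nearest one. The nearest protein-coding gene was more than 100 kb away for 32 chains. The 131 genes that held a chain had a median length of 152 kb, against 17.2 kb for all 21887 protein-coding genes. Exons and introns were not analysed here. Chains were found on 19 chromosomes, with the largest numbers on chromosome 2 (24 chains) and chromosome 1 (23 chains), and with none on X or Y. In all, 14 genes named 2 chains. They included Zfp469 with 13 clustered regions, Sash1 with 11, the transcription factor gene Ets1 and the focal adhesion gene Lpp with 10 each, and the basement membrane collagen gene Col4a2 with 9.

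The chain with the most regions lay in Tns1, which encodes tensin 1, a protein that links integrins to actin. Its 10 regions ran from chr1:73998119-74076640 (mm10), all inside the gene. A row of 9 regions stood 145 kb from Dapk1, a gene for a death-associated kinase. The gene of the nuclear receptor Rxra was overlapped by a row of 8 regions, 3 of them inside the gene. Rows of 7 lay in Zfp469, in Plxna2 (a semaphorin receptor), in Septin9 (a filament-forming cytoskeletal protein), in Arhgap42 and across Itpripl2. Rows of 6 with long spans lay across Prg4, which encodes the lubricating glycoprotein of joints, across Lmcd1, in Sash1 and 124 kb from Foxa2.

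**Figure D1:**
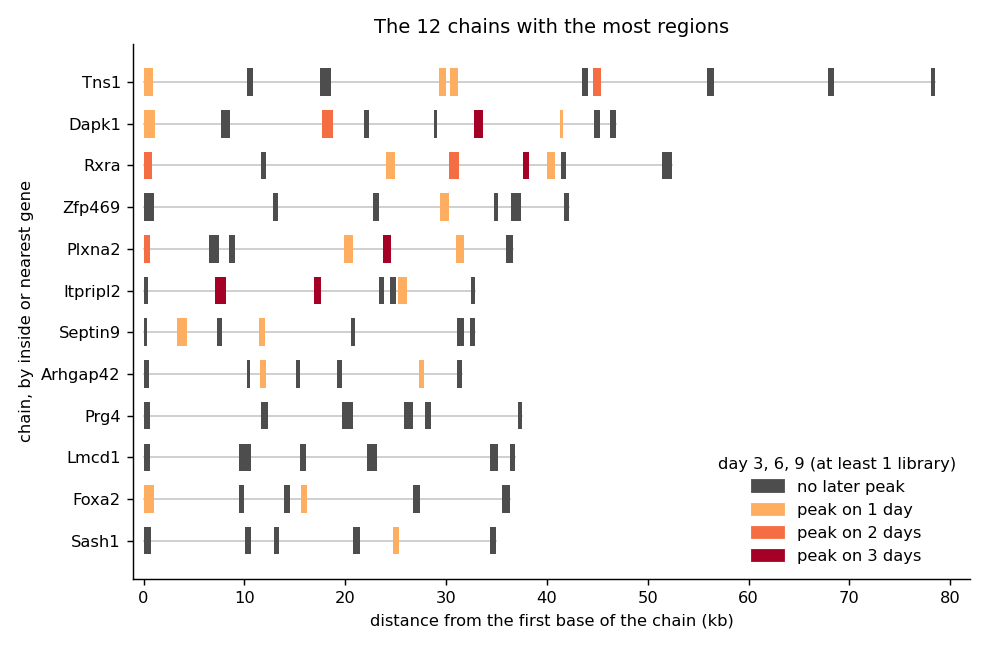
Map of the 12 chains with the most regions, each drawn to scale from its first base in kb on the x axis, with 1 row per chain named by the gene it lies in or nearest to. Each box is a region and its colour gives the number of days among DAY3, DAY6 and DAY9 on which at least 1 library had a peak: Prg4 and Lmcd1 have only grey boxes, and in most other chains grey and coloured boxes stand side by side.

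Whether a list of matrix or fibroblast genes holds chains was read as a count of genes with a clustered region inside the gene or within 50 kb of either end. Of all 21887 protein-coding genes, 397 met this (1.81%). Among 30 matrix genes the count was 8 (26.7%): Col1a1, Col4a1, Col6a2, Col6a3, Thbs2, Fbn1, Loxl2 and Fbln2. Of 22 fibroblast transcription factor genes, 3 met it: Snai1, Zeb2 and Meox1. Of 25 actin and adhesion genes 3 did (Lpp, Actn1 and Cdh2), of 23 TGF-beta pathway genes 2 did (Tgfb2 and Tgfbr1), and of 22 genes of AP-1, Tead, Runx and Cebp factors only Tead1 did. None of 19 growth factor and cytokine receptor genes, 10 senescence and p53 genes and 20 pluripotency genes did. The markers of endothelial, myeloid, skeletal muscle, cartilage, neural crest, adipocyte and epithelial cells also gave a count of 0, over 56 genes. Lists this short can hold no such gene at the background share, so the counts of 0 do not set them apart from the background. Counting the gene body alone, 6 of these 17 genes remained, 3 of them matrix genes (Col4a1, Fbn1 and Loxl2) and 3 actin and adhesion genes. The share of all protein-coding genes by this narrower count is not given here. The 6 therefore cannot be read against a background. Long genes have more room for a region under both counts. No count was adjusted for gene length, so the 1.81% is not a length-matched background for the lists.

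**Figure D2:**
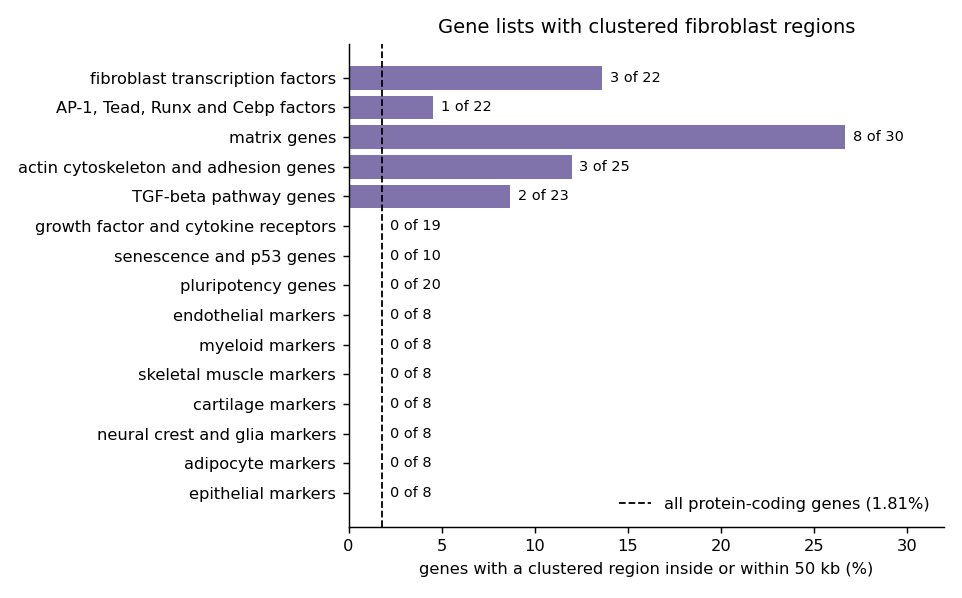
Share of each gene list (x axis, %) with a clustered region inside the gene or within 50 kb of an end, with the counts beside the bars and a dashed line at the share over all protein-coding genes. The matrix list reaches 26.7%, and 10 of the 15 lists are at 0, which short lists can be at the background share. The dashed share is not matched for gene length.

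The fibroblast label was checked at gene starts, which the choice of distal regions did not use. Among the matrix genes with a promoter window, 17 of 18 starts had a peak in both MEF libraries, against 12 on DAY3, 10 on DAY6, 10 on DAY9 and 12 for ESC. The fibroblast transcription factor genes did not show this: 6 of 13 starts had a peak in both MEF libraries. Their counts were 9 on DAY3, 6 on DAY6, 5 on DAY9 and 6 for ESC. Of the pluripotency genes, 4 of 12 starts had peaks in both MEF libraries, and 12 of 12 did at DAY9. Starts of the other cell types' markers had peaks in both MEF libraries in 4 of 35 cases. The starts of the genes that name chains did not share the course of the chains: of 195 with a window, 76.4% had a peak in both MEF libraries. The share was 78.5% on DAY3, 81.5% on DAY6, 82.6% on DAY9 and 81.5% for ESC. For all 17492 protein-coding genes with a window the shares were 54.1%, 54.4%, 57.8%, 60.7% and 59.6%.

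Most clustered regions had no peak at the first day measured. At DAY3, 237 and 228 of the 1211 regions still had a peak in the 2 libraries (19.6% and 18.8%). At DAY6 the counts were 146 and 111 (12.1% and 9.17%), and at DAY9 they were 89 and 91 (7.35% and 7.51%). The libraries of the 3 days did not overlap in this share. Nor did they over all distal fibroblast-only regions, so this course was not particular to the chains. There the shares were 16.4% and 16.2% at DAY3, 11.1% and 9.69% at DAY6, and 8.09% and 8.19% at DAY9. The libraries of DAY3 differed by little more than counting noise in their peak heights, as did those of DAY9, so each pair was averaged into a single sample. The stage values were 19.2% at DAY3, 10.6% ± 2.04 (SD, n = 2) at DAY6 and 7.43% at DAY9. The difference from DAY3 to DAY9 was -11.8 percentage points, with p = 0.167 in an exact two-sided Jonckheere-Terpstra permutation test over 4 samples, the smallest p this design allows. With all lists cut to 45497 peaks and the same regions, the stage values were 19.1%, 6.65% and 2.31% and the difference was -16.8 points. With regions chosen anew from the cut lists it was -22.9 points. The exact p was 0.167 in both cases. With regions chosen without MEF replicate 1 or without MEF replicate 2 the difference was -7.49 or -6.79 points. Because each library is a bulk sample, fewer cells with an open region and weaker opening in each cell cannot be told apart.

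**Figure D3:**
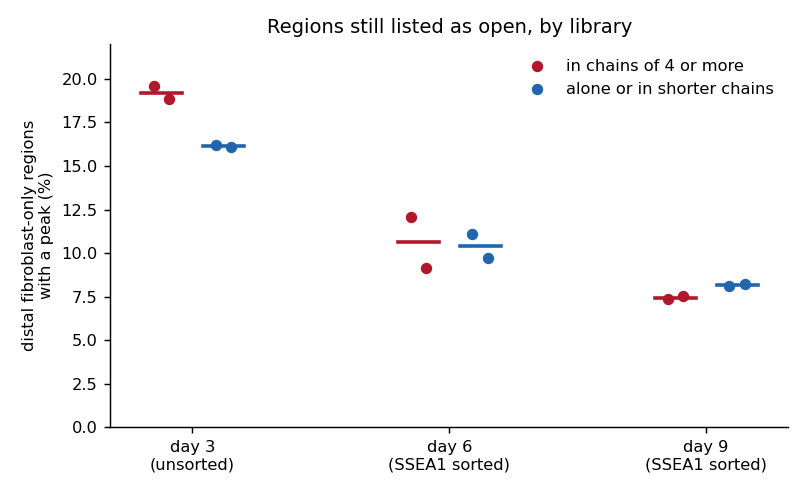
Share of distal fibroblast-only regions with a peak (y axis, %) in each library of DAY3, DAY6 and DAY9, for regions in chains of 4 or more and for the rest. Points are libraries and bars are the means of 2 libraries: clustered regions lie above the others at DAY3 (19.6% and 18.8% against 16.2% and 16.1%) and below them at DAY9 (7.35% and 7.51% against 8.13% and 8.22%).

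No peak in either DAY3 library was listed for 931 clustered regions, which is 76.9% (95% exact Clopper-Pearson interval 74.4% to 79.2%, covering counting error only). Over all distal fibroblast-only regions this share was 79.7%, so the clustered regions were near the background, which lay just above the interval. A further 142 regions (11.7%) were first without a peak at DAY6, 60 (4.95%) at DAY9, and 78 (6.44%) had a peak on all 3 days and were without one only in ESC. By the stricter count of both libraries, 185 clustered regions (15.3%) had a DAY3 peak, against a background of 12.3%. No peak in either DAY6 library was listed for 1035 clustered regions (85.5%, background 85.9%), and in either DAY9 library for 1096 (90.5%, background 90.1%). At DAY6 the strict count was 81 (6.69%, background 6.75%), and at DAY9 it was 65 (5.37%, background 6.35%). Peaks in both libraries of all 3 days were found in 38 regions (3.14%, background 3.22%). The DAY3 lists were the shortest of the series, with 45497 and 45766 peaks against 58969 to 78308 at DAY6 and DAY9. With all lists cut to their 45497 highest-scoring peaks and the same 1211 regions, the share without a DAY3 peak was 77.0%. With the regions also chosen anew from the cut lists, 106 chains were left and the share was 64.4%.

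Chains and the remaining distal fibroblast-only regions were compared in the same libraries. The clustered share exceeded the unclustered one by 3.39 and 2.74 points in the DAY3 libraries and by 0.970 points in DAY6 replicate 1. The difference was -0.558 points in DAY6 replicate 2, and -0.780 and -0.710 points in the DAY9 libraries. The mean difference over 4 samples was 0.683 points (p = 0.625, exact two-sided sign-flip permutation test, smallest possible p 0.125). This mean joins days with differences of opposite sign, and so few samples cannot give a small p. The test therefore does not decide whether clustered and unclustered regions differed on a given day. Without MEF replicate 1 the mean was 1.95 points (p = 0.125 in the same exact test), and the DAY9 difference was then 1.18 points. Chain length did not order the shares: at DAY3 the mean was 15.4% for regions alone, 16.8% in chains of 2, 19.5% in chains of 3, 18.3% in chains of 4, 21.7% in chains of 5 and 18.9% in longer chains. The 845 fibroblast-only regions near gene ends had peaks in a larger share than clustered ones in all 6 libraries, with 25.0% and 24.0% at DAY3 and 18.8% and 18.5% at DAY9.

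Within a chain the regions differed in the days on which a peak was listed. At DAY3, 94 of the 272 chains had no region with a peak in either library, 176 (64.7%) had some regions with a peak and some without, and only 2 had a peak in every region. A single region remained in 107 chains, 2 regions in 47 and 3 or more in 24. Where a peak in both DAY3 libraries was required, 136 chains had none, 136 were mixed and 0 were listed in full. How far such mixing follows from the share of regions with a peak alone was not tested. At DAY6, 137 chains had no region with a peak and 135 were mixed, and at DAY9 the counts were 177 and 94, with 1 chain listed in full. Over the 3 days together, 75 chains (27.6%) had no region with a peak on any day, 51 (18.8%) had peaks at DAY3 only, 127 (46.7%) had peaks at DAY3 and later, and 19 (6.99%) had none at DAY3 and some later.

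**Figure D4:**
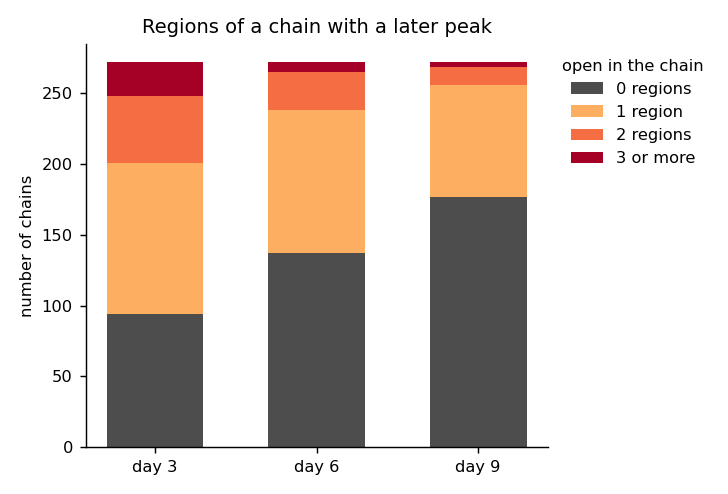
Number of chains (y axis) by how many of their regions had a peak in at least 1 library at DAY3, DAY6 and DAY9, as stacked bars over 272 chains. Chains without any such region number 94, 137 and 177, and chains with 3 or more number 24, 7 and 3.

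Neighbours in a chain often differed. At DAY3, 65.9% of the 939 neighbouring pairs had the same state, against 69.3% of neighbouring pairs of unclustered regions. How far this follows from the share of regions with a peak alone was not tested. A region next to one with a DAY3 peak had a peak itself in 26.9% of cases, and a region next to one without had it in 22.2%. Among unclustered regions, whose neighbours lay a median of 50.9 kb apart, these shares were 23.5% and 19.2%. At DAY6 the shares in chains were 15.3% and 14.5%, against 16.3% and 13.7% among unclustered regions. At DAY9 they were 12.2% and 9.37% in chains, against 14.6% and 9.43% among unclustered regions. Outermost regions of a chain had a DAY3 peak in 22.4% of cases and inner ones in 23.7%. Regions of chains inside genes had one in 24.1% and regions of chains between genes in 21.2%.

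The rank of a region within its chain separated the regions more than its place did. The fold enrichment of a peak over its local background, as the authors deposited it, was averaged over the MEF libraries and ranked in each chain. The region with the highest MEF fold had a DAY3 peak in at least 1 library in 31.6% of the 272 chains, the second in 29.4%, the third in 22.8% and the lowest in 12.5%. At DAY9 the shares were 12.5%, 12.5%, 8.46% and 5.15%. The 876 regions without a peak on any day had a median MEF fold of 4.51 and a median width of 555.5 bp. The 134 with a peak at DAY3 only had a fold of 5.89, and the 38 with peaks in both libraries of all 3 days had a fold of 5.90 and a width of 971.5 bp. Widths are of regions merged from the peaks of all libraries. A region with later peaks can be wider by that merging alone, so width is not a trait of lasting regions here.

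**Figure D5:**
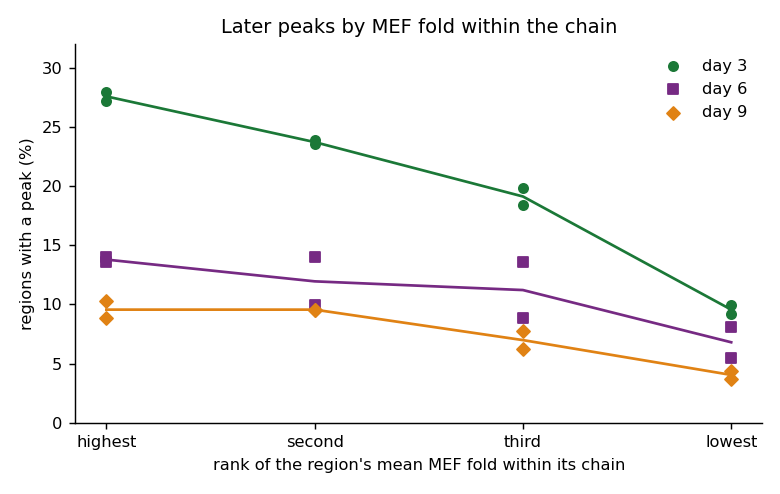
Share of regions with a peak (y axis, %) by the rank of the region's mean MEF fold within its chain (x axis), with 272 regions per rank. Points are libraries and lines join the means of the 2 libraries of a day: at DAY3 the values run from 27.9% and 27.2% for the highest to 9.93% and 9.19% for the lowest.

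Clustered regions as a set were not stronger in MEF than the others. Their median MEF fold was 4.73, against 5.01 for unclustered distal regions, and their median width was 601 bp against 599 bp. All distal fibroblast-only regions were split by MEF score into 4 groups of near-equal size. Shares in these groups are means of the 2 libraries of a day, unlike the counts of at least 1 library by rank. At DAY3, 10.4%, 13.9%, 20.4% and 30.0% of clustered regions had a peak from the weakest to the strongest group. For the unclustered regions the same groups gave 10.3%, 11.4%, 16.3% and 26.3%. At DAY6 the weakest group gave 6.13% of clustered and 8.77% of unclustered regions, and the strongest 14.7% and 13.7%. At DAY9 the 4 groups gave 3.90%, 7.09%, 9.02% and 9.09% of clustered regions. The unclustered shares at DAY9 were 8.89%, 8.12%, 7.73% and 8.01%. MEF values took part in choosing the regions, so these are descriptions.

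The 9 chains in reach of the 8 matrix genes held 39 regions, of which 9 (23.1%) had a peak in at least 1 DAY3 library, as did 23.1% of all clustered regions. At DAY6 the count was 3 (7.69%, against 14.5% of all clustered regions) and at DAY9 it was 1 (2.56%, against 9.50%), and these differences were not tested. Regions are numbered within each chain along the chromosome, and paired folds are those of replicate 1 and replicate 2. Col1a1 encodes the main chain of type I collagen and is also the locus of the reprogramming cassette in the MEF and DAY3 to DAY9 cells, but not in ESC. Its 4 regions lay at chr11:94916340-94934076, 2.15 kb from the gene, with folds of 3.41 to 6.62 in MEF replicate 1 and 2.47 to 4.89 in replicate 2. No library of DAY3, DAY6 or DAY9 had a peak in any of the 4. The 4 regions 10.4 kb from Col6a2, a type VI collagen gene, and the 4 inside Col4a1, a basement membrane collagen gene, had none either. Near Col6a3, another type VI collagen gene, 1 of 4 regions had a peak, in DAY3 replicate 1 with a fold of 3.81. A second chain in reach of Col4a1, of 4 regions inside the adjoining Col4a2, had 2 regions with a peak in DAY3 replicate 2 alone. None of these chains had a listed peak at DAY6 or DAY9.

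Of the other listed matrix genes, Thbs2 had a region with peaks in both libraries of DAY3 and of DAY6. Loxl2, which encodes a collagen cross-linking enzyme, held 5 regions. Region 3 had folds of 9.13 and 5.68 in MEF and of 4.44 and 6.06 at DAY3 and no later peak, and region 1 had a peak in 1 DAY3 library. Of 5 regions near Thbs2, a thrombospondin gene, only region 4 had later peaks. Its folds were 7.53 and 5.26 in MEF, 6.50 and 4.62 at DAY3 and 6.06 and 5.11 at DAY6, with none at DAY9. Fbn1, the gene of the microfibril protein fibrillin 1, had peaks of both DAY3 libraries in region 1 and a peak of DAY6 replicate 1 alone in region 3.

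Fbln2, which encodes the matrix protein fibulin 2, was the only one of the 8 listed matrix genes with a DAY9 peak in its chain. Other chains in genes of collagens and laminins, outside these 8, had a DAY9 peak in 1 region each: the other chain of Col4a2, the chain in Col15a1 and that in Lamc1. The chain of 5 regions ended 1.30 kb from the gene. Region 3, 21.4 kb from the start of the chain, had folds of 7.71 and 4.29 in MEF, 4.87 and 5.43 at DAY3, 5.26 and 5.41 at DAY6 and 5.02 and 5.02 at DAY9. Region 2, which had the highest folds of the chain in MEF (12.3 and 7.83), had no later peak. The region that remained was therefore not the one with the highest MEF fold.

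The 3 chains near fibroblast transcription factor genes held 12 regions, of which 2 (16.7%) had a DAY3 peak, against 23.1% of all clustered regions, and none had a DAY6 or DAY9 peak. Zeb2, Snai1 and Meox1 encode factors active in mesenchymal and mesodermal cells, the first 2 being repressors of epithelial genes. The 4 regions 5.67 kb from Zeb2 had MEF folds up to 14.0 in replicate 1, and only region 2 had DAY3 peaks, with folds of 6.19 and 5.26. The nearest regions to Snai1 belonged to a chain of 4 between Snai1 and Ube2v1. Of the 3 within 50 kb of Snai1 none had a later peak, and region 4 had DAY3 folds of 4.19 and 4.40. All 4 regions near Meox1 were without later peaks. Of the 4 near Tead1, which encodes a factor that works with the coactivator Yap1, region 1 had DAY3 folds of 2.85 and 2.90.

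The 4 chains of the actin and adhesion genes held 18 regions, of which 5 (27.8%) had a DAY3 peak, 4 (22.2%) a DAY6 peak and 2 (11.1%) a DAY9 peak. The shares at DAY3 and DAY9 are near those of all clustered regions (23.1% and 9.50%). At DAY6 the share was above that of all clustered regions (14.5%), a difference that was not tested. In Actn1, the gene of the actin cross-linker alpha-actinin 1, region 4 had folds of 4.34 and 2.83 in MEF, 5.25 and 4.53 at DAY3, 4.27 and 4.51 at DAY6 and 3.72 and 3.94 at DAY9. Region 3 had peaks at DAY3 only, and regions 1 and 2 had none. In the first of the chains of Lpp, region 2 had folds of 4.68 and 3.22 in MEF, 8.27 and 9.56 at DAY3, 8.76 and 5.38 at DAY6 and 2.88 and 2.75 at DAY9, and the other 5 regions had no later peak. Region 6 of that chain, which had the highest MEF folds, was among these 5. The second chain of Lpp and that of Cdh2 had no DAY9 peak. Cdh2, the gene of N-cadherin, held 4 regions, of which region 3 had a peak in DAY3 replicate 1 and in both DAY6 libraries. Near Tgfb2, the gene of a TGF-beta ligand, 2 of 4 regions had peaks in both DAY3 libraries, of which region 1 kept them in both DAY6 libraries and neither had a peak at DAY9.

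The 6 largest chains without a DAY3 peak lay at Prg4, Lmcd1, Pitpnm3, Phldb2, Vgll4 and Zfp469. The 6 regions at Prg4 had MEF folds of 3.35 to 13.1 in replicate 1 and the 6 at Lmcd1 of 3.25 to 15.2, and none had a peak on any later day. The same held for the 6 regions each in Pitpnm3, in Phldb2, whose product anchors microtubules near adhesions, and in Vgll4, whose product binds Tead factors. In Zfp469, a gene for a zinc finger protein of connective tissue, the 7 regions had MEF folds of 4.42 to 8.89 in replicate 1, and the single later peak was in DAY9 replicate 1 with a fold of 3.12. A second chain in Zfp469, of 6 regions, had 1 region with peaks in both libraries of all 3 days.

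Only 2 chains had a DAY3 peak in every region, and both rested on single libraries for part of it. In Lamc1, which encodes a laminin chain of basement membranes, the 5 regions had folds of 4.28 to 11.2 in MEF replicate 1 and of 2.97 to 4.64 in DAY3 replicate 1. DAY3 replicate 2 had a peak in region 4 only. That region, the widest after merging with 1309 bp, was the one that had peaks in both libraries of all days, with folds of 3.43 and 3.59 at DAY9.

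The other chain, of 4 regions at chr9:41579559-41596217, was the only one listed in full at DAY9. It spans the gene of miR-125b-1 and lies 310 kb from the nearest protein-coding gene, Gm40514. Region 2 had folds of 5.96 and 2.94 in MEF, 3.72 and 3.15 at DAY3, 4.19 and 5.12 at DAY6 and 3.33 and 2.94 at DAY9. Region 4 had 6.89 and 4.70 in MEF, 5.22 and 4.61 at DAY3, 7.79 and 6.41 at DAY6 and 4.08 and 3.34 at DAY9. Regions 1 and 3, with MEF folds of 2.66 to 3.09, had DAY9 peaks in replicate 2 only. Gm51670, whose promoter window is printed above, starts in region 1. The mature miR-125b-5p has its own seed, and miR-100-5p, from a hairpin 48.1 kb from the chain, has another (bases 2 to 8 in capitals, sequences from RefSeq).
miR-125b-5p, chr9:41581940-41581961, plus strand: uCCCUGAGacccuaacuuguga
miR-100-5p, chr9:41531437-41531458, plus strand: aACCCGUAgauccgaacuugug
No miRNA gene lay within a clustered region itself, and 2 lay within the span of a chain.

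Single lasting regions stood in 36 chains. The 38 regions with peaks in both libraries of all 3 days were spread over these 36, with 2 regions in each of 2 chains. Folds depend on depth and are set side by side only as a description. In 17 of the 38, both DAY9 folds were below both MEF folds, and in 7 both were above. Itpripl2 named the chain of 2 of the latter. Region 2 of this chain had folds of 8.03 and 3.33 in MEF, 9.55 and 10.2 at DAY3, 14.7 and 14.8 at DAY6 and 15.5 and 15.1 at DAY9, with no peak in ESC. Region 3 had folds of 5.20 and 3.75 in MEF and of 6.99 and 5.83 at DAY9, region 6 had a peak in DAY3 replicate 1, and the other 4 had none after MEF.

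A like course was found in Plxna2, although the region missed a peak in 1 library. Region 5 had folds of 4.10 and 3.54 in MEF, 3.49 in DAY3 replicate 1, 7.23 and 11.4 at DAY6 and 12.8 and 14.2 at DAY9. Region 4, with the highest MEF folds of the chain (10.9 and 6.63), had DAY3 folds of 4.28 and 3.83 and no later peak. Region 6 had no peak at DAY3 or DAY6 and folds of 3.96 and 5.38 at DAY9.

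Dapk1, Dusp5 and Sgms1 each named a chain with 1 lasting region. In the row 145 kb from Dapk1, region 6 of 9 had folds of 5.56 and 8.26 in MEF, 5.55 and 6.38 at DAY3, 4.94 and 3.61 at DAY6 and 6.36 and 6.09 at DAY9. Region 1 of that row, with MEF folds of 14.5 and 9.93, had peaks only at DAY3. At Dusp5, which encodes a phosphatase of ERK, region 4 of 5 had folds of 8.63 and 6.33 in MEF and of 4.87 and 5.15 at DAY9, and the other 4 had no later peak. In Sgms1, a sphingomyelin synthase gene, region 3 was the widest after merging, with 1547 bp. It had folds of 10.2 and 9.17 in MEF, 5.76 and 4.84 at DAY3, 7.17 and 10.3 at DAY6 and 6.68 and 6.93 at DAY9.

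The rows in Tns1 and Rxra had later peaks mostly in single libraries. Of the 10 regions in Tns1, 2 had a peak in DAY3 replicate 2 and none had one in replicate 1. Region 7 had folds of 3.19 there and of 5.24 and 6.01 at DAY6, and region 5, without a peak at DAY3 or DAY6, had folds of 2.87 and 3.48 at DAY9. In Rxra, region 5 of 8 had no peak in DAY3 replicate 1 and had folds of 3.05 in DAY3 replicate 2, 4.27 and 4.21 at DAY6 and 3.36 and 3.70 at DAY9.

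A peak that was missing at DAY3 and listed later occurred in 55 clustered regions (4.54%, against 4.52% of the unclustered regions). In 17 of them both libraries of DAY6 or of DAY9 had it. Region 5 of Tns1 and region 6 of Plxna2 were among these 17.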

How the data were processed

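Chromatin accessibility was measured by ATAC-seq in 10 mouse libraries, 2 at each of 5 stages. Bowtie2 2.3.2, deepTools 2.3.6, MACS2 2.1.1 and mm10 are named, with no role or order, per the submitters' processing notes. The authors deposited 1 peak list per library, with a score for each peak, the fold enrichment as a linear ratio, and −log10 p- and q-values. The score and the fold are the authors' own and were used only to describe and rank peaks. The numbering of the peaks has gaps, so called peaks were left out of the lists, by a criterion not given in the sources used here. Lists held between 45497 and 88980 peaks. Sequencing depth is unknown, and the background pileup recovered from fold and p ranged from 2.33 to 8.32.

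Peaks that overlapped by at least 1 bp were merged, and a library had a region if a peak of its list was part of it. Gene ends came from RefSeq (GRCm38.p6). A chain was named by the protein-coding gene that holds most of its regions, otherwise by the nearest one. Named chains were the 12 with the most regions, the 6 largest without a DAY3 peak, those with a DAY3 peak in every region, the 6 with the most regions open on all days, and the chains of up to 4 genes per list. Chains with a printed promoter window were named after their values were seen. The members, lists and alternatives were chosen with earlier results of these data known. Both DAY3 libraries, and both DAY9 libraries, differed by 1.33 and 1.42 times counting noise in peak height (MEF 5.56, DAY6 3.61) and were averaged into 1 sample each. Tests were exact permutation tests over samples (Python 3.11.15, numpy 2.4.6, pandas 2.3.3, scipy 1.17.1, matplotlib 3.10.9). The finding of chains and members, the count without a DAY3 peak and the recovery of pileups were checked on simulated data. The permutation tests were not checked in this way. Alternatives changed list length, score, coverage, gap, chain length, distance to genes and libraries.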

Additional observations from a re-analysis of the deposited data

How the results depend on the processing

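With lists of equal length and regions chosen anew 106 chains remained, with the top 50% of each list 31, with gaps up to 5 kb 33, with gaps up to 25 kb 750, with chains of 3 or more 943 and with chains of 6 or more 25, against 272. Leaving out 1 MEF or ESC library gave 317 to 1192 chains. Regions were not chosen anew when a DAY3, DAY6 or DAY9 library was left out. The difference from DAY3 to DAY9 was negative under every alternative run, -12.1 to -6.79 points when 1 library was left out, -16.8 points with lists of equal length and the same regions, and -22.9 points with regions chosen anew. With all libraries as separate samples it was -11.8 points with an exact p of 0.0222. With the replicate number as a block the exact p was 0.0556, and the difference between clustered and unclustered regions was 0.842 points (exact p = 0.5). Same-numbered libraries did not deviate together (r of -0.0239, -0.0288 and -0.0283 over regions). The libraries of DAY3, and those of DAY9, differed by little more than counting noise. These r values therefore cannot show whether the numbers pair the libraries. The mean clustered minus unclustered share reversed to -0.279 points with gaps up to 5 kb and to -0.344 points with chains of 6 or more, and was 0.587 to 1.95 points with 1 library left out. The share without a DAY3 peak was 77.0% with lists of equal length and the same regions, 64.4% with regions chosen anew, 79.5% with the top 50%, 80.4% where 50% of the region had to be covered and 81.8% with gaps up to 5 kb, and 73.3% to 81.5% with 1 library left out. The share with a peak on all 3 days was 2.23% with lists of equal length and the same regions (7.56% with regions chosen anew), 3.15% with the top 50%, 4.70% with 50% covered and 4.88% in chains of 6 or more, and 5.04% to 9.05% with 1 library left out. Mixed chains at DAY3 made up 65.1% with lists of equal length and the same regions, 80.2% with regions chosen anew, 56.8% with 50% covered, 54.5% with gaps up to 5 kb, 55.5% with chains of 3 or more and 76% with chains of 6 or more, and 56.6% to 70.1% with 1 library left out. Neighbours had the same DAY3 state in 65.7% of pairs with equal length and the same regions, and in 57.8%, 69.9%, 71.2% and 58.3% with equal length and regions chosen anew, 50% covered, gaps up to 5 kb and chains of 6 or more, and in 63.0% to 71.1% with 1 library left out. List genes with a chain numbered 6 when only the gene body counted, a count without its own background. The cause of these shifts was not tested, except that a smaller gap or a longer chain leaves fewer regions by construction. Depth is unknown, so a missing peak is a missing list entry and not a closed region.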

Other observations

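The spans of the chains also held 599 merged regions that were not members. Of these, 266 had a peak in an ESC library and 331 had none in MEF, and the latter share (55.3%) was near that over all merged regions (57.2%). A region with an ESC peak stood in the span of 145 of the 272 chains, and 48 chains held no other region. At Prg4, where all 6 members were without later peaks, 7 other regions lay in the span, none of them with a MEF peak and 4 with an ESC peak. In the span at Col1a1 there were 4 others, 2 with an ESC peak.

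The same rule with fibroblasts and stem cells exchanged gave 423 chains that held 1998 of 31136 distal stem cell regions (6.42%), against 5.40% of distal fibroblast regions.

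On chromosome 4, 2 chains lay 154 kb and 158 kb from the genes that name them, Cdkn2b and Dmrta1. The 5 regions of the second had no later peak. Of the 6 in the first, 3 had DAY3 peaks, and region 2 had folds of 5.71 and 4.47 at DAY3 and of 3.82 and 3.91 at DAY6. A chain of 4 regions inside Vmp1 lay 8.46 kb from the sequence of miR-21a-5p, and 1 of its regions had a peak, in a single DAY3 library.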
